A study of Mus musculus with 2 samples.

Results

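Sox8, Sox9, Wt1 and Gata4 encode transcription factors that mark Sertoli cells, which line the seminiferous tubule and nurse the germ cells. The 4 genes were found among the non-control probes of the array by the gene name printed in the scanner files, which gave 8 of 15208 probes: 2 for Sox8, 3 for Sox9, 1 for Wt1 and 2 for Gata4. They were read in 2 preparations of isolated cells labelled as Sertoli cells, made from testes of male Swiss mice, adults of 3 months. The busulphan preparation came from mice that had received 25 mg/kg body weight of busulphan, an alkylating drug that depletes dividing germ cells, 1 month before. The control preparation came from mice with no treatment. Both were made by collagenase and hyaluronidase digestion and collected on a fine cell strainer without culture, and the series asks how the drug changes the expression profile of these cells. Each preparation was labelled with Cy3 and read on 1 single-colour array, so n = 1 per group, and no difference has a replicate check or a p-value. Preparation, labelling and array cannot be told apart from the treatment. How many mice each preparation holds is not stated in the labels. All 4 genes were on the array among 9441 genes that could be compared.

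Sox9 carries an HMG box, a DNA-binding fold shared with the sex-determining gene Sry, and acts just after Sry to turn supporting cells of the fetal gonad into Sertoli cells. Sox8 is its close relative and works beside it in keeping tubules intact. Wt1 is a zinc finger protein that the gonad needs in order to form and that mature Sertoli cells need to keep their identity. Gata4 is a zinc finger protein that binds GATA sequences, and in the testis it is also found in Leydig and peritubular cells.

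The probes are the regions the measurements rest on, and 2 of them are shown because they gave the lowest ratios of their gene. Each is given whole, in capitals because the whole probe is what was measured.
Sox8 probe A_52_P269667, chr17:25705869-25705928 of mm9, minus strand: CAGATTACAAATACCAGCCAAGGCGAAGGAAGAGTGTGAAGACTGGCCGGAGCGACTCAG
Sox9 probe A_51_P451606, chr11:112644310-112645162 of mm9, plus strand: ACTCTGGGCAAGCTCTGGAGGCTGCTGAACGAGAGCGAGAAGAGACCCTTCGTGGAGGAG
The coordinates of the Sox9 probe span 853 bases for a probe of 60, so its target is interrupted in the genome. The other Sox8 probe, A_52_P269672, lies on chromosome 17 at 25703094 to 25703153, downstream of the first in the direction of transcription. The other Sox9 probes, A_52_P577484 and A_52_P214630, lie on chromosome 11 at 112647008 to 112647067 and at 112648809 to 112648868, again downstream.

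The Wt1 probe, A_52_P673458, lies on chromosome 2 at 105013428 to 105013487 of the plus strand. Both Gata4 probes lie on the minus strand of chromosome 14, A_52_P4201 at 63818147 to 63818206 and A_51_P492355 at 63817752 to 63817773. The second of these has coordinates for 22 of its 60 bases only. A stretch of 30 bases of A_52_P4201 is shown because it holds the hexamer AATAAA, the usual letters of a polyadenylation signal, in capitals.
Gata4 probe A_52_P4201, bases 13 to 42: gactgtttgcaaAATAAAttcaaagcagaa
The files do not say which exon or which part of the transcript a probe lies in.

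All 8 probes had more signal on the busulphan array than on the control array. After scaling, 7 of the 8 were at least 2-fold higher, against 31.6% of the 12852 probes compared. By the probe with the highest mean of each gene, 3 of the 4 genes were at least 2-fold higher, against 31.3% of genes, and none was at least 2-fold lower, against 29.5% of genes. The same 3 genes were at least 8-fold higher, against 4.83% of genes. Scaling here means that the log2 of each processed signal was taken relative to the 75th percentile of its own array, and a log2 ratio is the busulphan value minus the control value. Every one of the 8 probes was well above background on both arrays and none was saturated, so no value is a bound and no member was lost to the filter on dim probes. In a bulk preparation, a larger share of Sertoli cells and more RNA of these genes per Sertoli cell cannot be told apart.

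Sox8 was the highest of the 4. Probe A_52_P269672 had a processed signal of 652.6 on the busulphan array and 17.2 on the control array. The log2 ratio was 5.46, a 43.9-fold difference, with a spot error of 0.25 from the scanner software. This placed Sox8 at rank 4 of 9441 genes from the highest. The Sox8 probe shown above, A_52_P269667, had 278.1 on the busulphan array and 35.2 on the control array. Its log2 ratio was 3.19 (9.12-fold, spot error 0.22). Both Sox8 probes were thus higher after busulphan, and they differed in size by 2.27 on the log2 scale, 6.91 times the combined spot error. The control signal of the first probe lay near the floor of the array, where the lowest probe called well above background had 7.50. With normexp, a background correction that adds an offset and so narrows ratios of dim spots, the Sox8 probes gave 3.48 and 1.98.

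Sox9 followed at rank 14. Probe A_52_P577484 had a signal of 5173 on the busulphan array and 171.5 on the control array, a log2 ratio of 5.12 (34.8-fold, spot error 0.20). Probe A_52_P214630 had 2794 on the busulphan array and 103.8 on the control array, a log2 ratio of 4.96 (31.1-fold, spot error 0.21). These downstream probes differed by 0.16, which is less than their combined spot error of 0.29. The probe with the interrupted target, A_51_P451606, had 51.2 on the busulphan array and 12.5 on the control array, a log2 ratio of 2.24 (4.73-fold, spot error 0.28). It was below the brightest probe by 2.88, or 8.31 times the combined spot error. With normexp its ratio was 0.83, within 2-fold, while those of the bright Sox9 probes were 4.71 and 4.33.

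Wt1 has 1 probe. It had a signal of 6306 on the busulphan array and 631.7 on the control array. The log2 ratio was 3.53 (11.54-fold, spot error 0.20), at rank 232 of 9441, with 2.45% of genes higher. Its control spot was well clear of the floor, and with normexp the ratio was 3.45. Since a single probe was read, agreement between probes cannot be given for Wt1.

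By the probe that stands for it Gata4 lay below the other members, and its probes did not give the same answer. Probe A_51_P492355, which has the higher mean over the arrays, had 115.0 on the busulphan array and 79.9 on the control array. Its log2 ratio of 0.73 (1.66-fold, spot error 0.21) lay within 2-fold, and 36.8% of genes were higher. Scaled to spike-in controls or to housekeeping genes, the sign turned, to -0.15 and -0.23. Probe A_52_P4201 had 102.0 on the busulphan array and 10.3 on the control array, a log2 ratio of 3.52 (11.49-fold, spot error 0.30). With normexp it was 1.40. Its control spot was close to the floor. The ratios of the Gata4 probes differed by 2.79, which was 7.69 times the combined spot error.

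**Figure D1:**
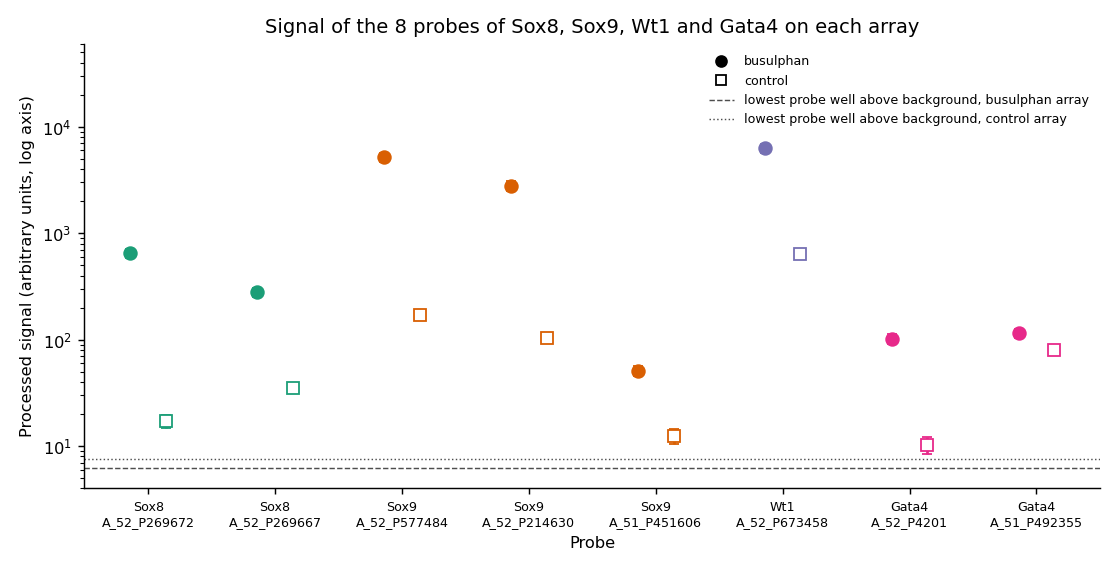
Processed signal (log axis) of each of the 8 probes on the busulphan array (filled circles) and on the control array (open squares), with the scanner software's spot error as bars (1 SD). Every filled circle lies above its square, the gap is smallest for Gata4 probe A_51_P492355, at 115.0 and 79.9, and the control squares of Sox8 A_52_P269672, Sox9 A_51_P451606 and Gata4 A_52_P4201 lie closest to the lines that mark the lowest probe well above background.

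The order of the genes by their brightest probe was Sox8, Sox9, Wt1 and Gata4. Sox8 and Sox9 differed from each other by less than the range between probes within either gene, so their order is not settled by these values. Wt1 lay inside the ranges spanned by the probes of Sox8 (3.19 to 5.46) and of Sox9 (2.24 to 5.12), and just above that of Gata4 (0.73 to 3.52). In the plot of the members against all genes the 8 probes lie to the right of the centre of the distribution, whose median was 0.06 and whose SD over genes was 2.10.

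**Figure D2:**
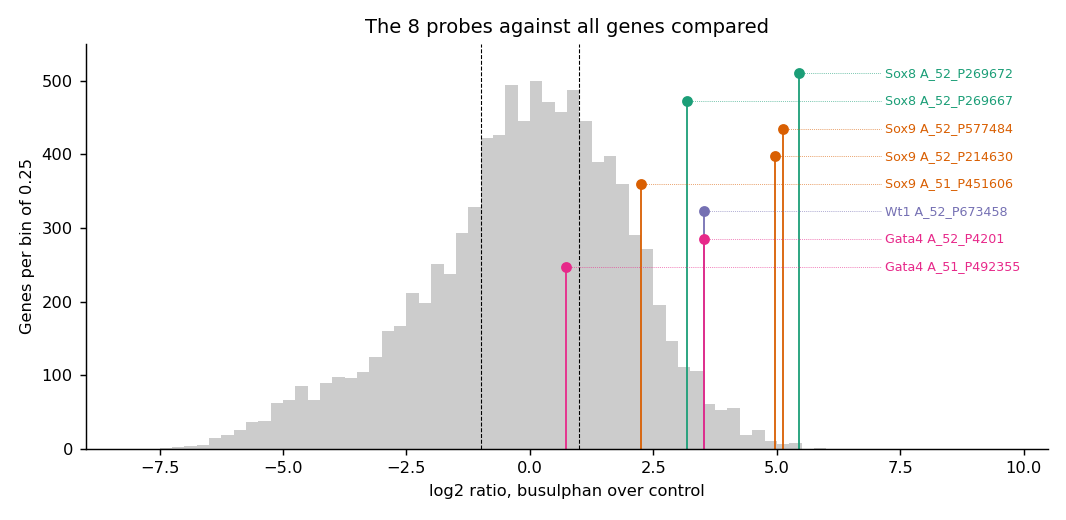
Histogram of the log2 ratio, busulphan over control, of the 9441 genes compared, in bins of 0.25, with the 8 probes drawn as coloured lines and 2-fold either way as dashed lines. One coloured line, that of Gata4 probe A_51_P492355 at 0.73, lies between the dashed lines, and those of Sox8 A_52_P269672 and of 2 Sox9 probes stand at the right edge of the distribution, between 4.96 and 5.46.

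The ranges between probes of Sox8 (2.27), Sox9 (2.88) and Gata4 (2.79) were wide but not rare on this array. Over 2321 genes with at least 2 measured probes the median range was 0.74, and 23.0% had a range of at least 2. The ranges of Sox8, Sox9 and Gata4 exceeded those of 80.7%, 87.2% and 86.2% of these genes. In all 3 genes the probe with the lowest ratio was the one richest in G and C bases. For Sox8 the share of G and C was 53.3% in the lowest probe and 28.3% in the other. For Sox9 it was 60% in the lowest, against 30.0% and 43.3%. For Gata4 it was 53.3% in the lower and 28.3% in the higher. Over the 533 genes whose probes differed by at least 2, the lower probe had more G and C than the higher in 61.4% and less in 25.5%, against 49.9% and 36.2% over all 2321 genes. By position along the gene, the lowest probe lay upstream for Sox8 and Sox9 but downstream for Gata4. That Gata4 probe has coordinates for 22 of its 60 bases only. Over the 526 genes with coordinates whose probes differed by at least 2, the lowest probe lay upstream in 81.2%. The share was 68.4% of all 2299 genes with coordinates. Sox8, Sox9 and Gata4 each have a probe at least 8-fold higher, as do 161 of the 2321 genes, these included. Among the 161, the lowest probe had more G and C than the highest in 56.5% and less in 30.4%. It lay upstream in 69.8% of the 159 with coordinates. Labelling began at the poly(A) end with an oligo-dT primer. The part of base composition, position and dim control spots in these differences was not tested.

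**Figure D3:**
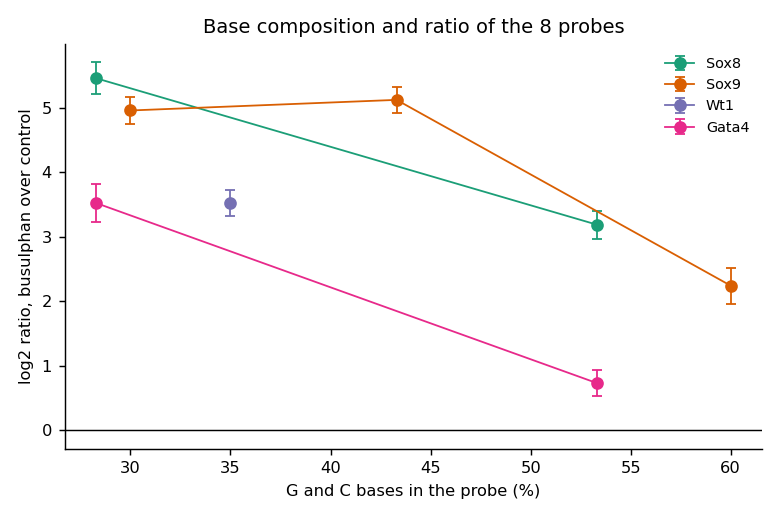
Share of G and C bases in each probe (percent) against its log2 ratio, busulphan over control, with lines joining the probes of a gene and bars for the scanner software's spot error (1 SD). In Sox8, Sox9 and Gata4 the probe richest in G and C, at 53.3% or 60%, has the lowest ratio, and the single Wt1 probe stands at 35% and 3.53.

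Scaling changed the sizes of all members and the direction of 1 probe. With spike-in controls the log2 ratios of the brightest probes were 4.57 for Sox8, 4.24 for Sox9, 2.65 for Wt1 and -0.15 for Gata4, while the median of all genes moved to -0.81. With housekeeping genes that median was -0.90 and the ratios were 4.49, 4.16, 2.56 and -0.23. The counts of all genes were then 1525 higher and 4382 lower with spike-in controls and 1406 higher and 4517 lower with housekeeping genes, against 2952 higher and 2784 lower as reported. By their brightest probes Sox8, Sox9 and Wt1 remained more than 4-fold higher under each of these scalings. Sox9 probe A_51_P451606 gave 1.36 with spike-in controls and 1.28 with housekeeping genes, both below 4-fold.

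**Figure D4:**
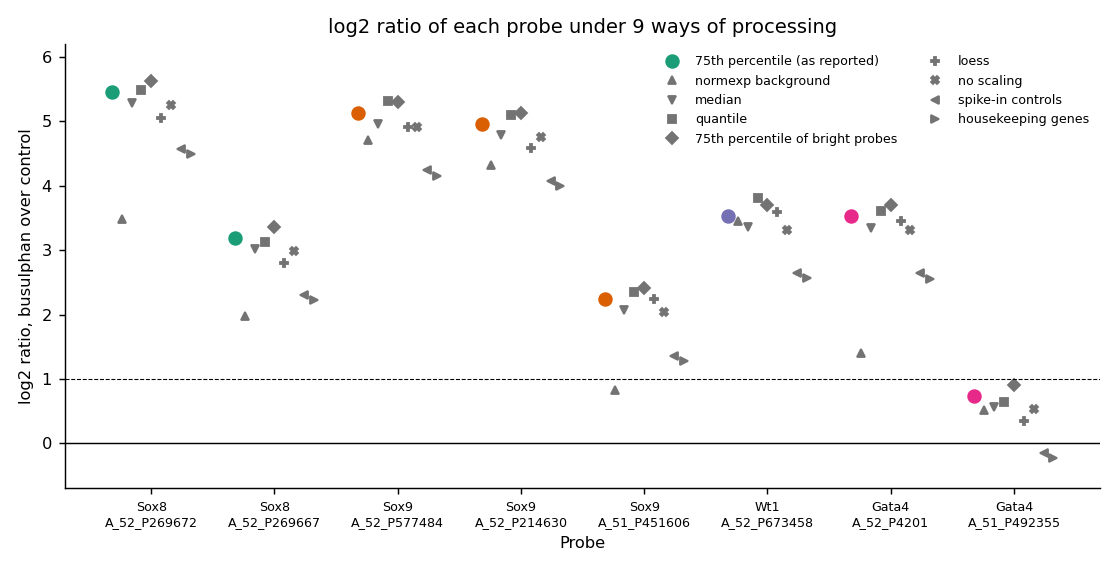
log2 ratio, busulphan over control, of each of the 8 probes under 9 ways of processing; the coloured circle is the reported value and grey symbols are alternatives, with 2-fold as a dashed line. Gata4 probe A_51_P492355 crosses 0 with spike-in and housekeeping scaling (-0.15 and -0.23), Sox9 probe A_51_P451606 passes below the dashed line with normexp (0.83), and the other 6 probes stay above it.

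The close relatives of the members did not share their direction as groups. Among 13 other Sox genes, 3 passed 2-fold upward and 6 downward, against 31.3% and 29.5% of all genes. Their median log2 ratio was -0.93. Sox4, Sox11 and Sox13 were the higher ones, at 2.70, 1.56 and 1.40, and with housekeeping or spike-in scaling Sox11 and Sox13 lay within 2-fold. The lowest were Sox30, Sox5 and Sox6, which are known from meiotic and later germ cells. Sox30 had a signal of 30.1 on the busulphan array and 2437 on the control array, a log2 ratio of -6.13 (70.0-fold lower). Sox5 had 17.3 on the busulphan array and 721.5 on the control array, at -5.17, and Sox6 had 197.4 on the busulphan array and 4236 on the control array, at -4.21, with other Sox6 probes between -4.09 and -0.50. Sox10, the third member of the subgroup that holds Sox8 and Sox9, had 47.2 on the busulphan array and 211.4 on the control array, at -1.96. Within this subgroup the 2 Sertoli cell members were thus higher and Sox10 lower.

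Of 7 other Gata genes and cofactors, 3 were higher and 2 lower, against 31.3% and 29.5% of all genes, and the median was -0.74. Gata1, which adult Sertoli cells express in a stage-dependent way, had 1619 on the busulphan array and 128.6 on the control array, at 3.86 (14.6-fold). Gata6 had 2771 on the busulphan array and 670.2 on the control array, at 2.26. Another measured Gata6 probe gave 3.54, and a probe dim on the control array gave a bound of 0.45. Trps1, an atypical repressor of GATA sites, stood at 1.37, and within 2-fold with housekeeping, spike-in or loess scaling. Gata2 was the lowest at -3.81, with its other probe at -1.02. The GATA cofactors stood at -0.80 for Zfpm1 and -1.37 for Zfpm2, which partners Gata4 in gonad formation. Another Zfpm2 probe gave -0.08. By the brightest probe of each gene, Gata1 and Gata6 were therefore higher by more than Gata4, and Zfpm2 was lower. The other Gata4 probe (3.52) stood above the brightest Gata6 probe. Zfpm2 lay within 2-fold under at least 1 alternative.

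Other transcription factors of the gonad were more often higher than lower. Of 34 compared, 19 passed 2-fold upward and 5 downward, against 31.3% and 29.5% of all genes. The median was 1.26, against 0.06 over all genes. Some of these genes, such as Gata1, Rhox5 and Nr5a1, also stand in other lists here, so this count is not separate from theirs. Gata1, the coactivator Cited2 and the homeobox gene Rhox5 led at 3.86, 3.69 and 3.48. The nuclear receptor Nr5a1, which works with Sox9 and Gata4 on Amh, stood at 2.41, and Dmrt1, which guards male identity, at 1.83. With housekeeping scaling Dmrt1 lay within 2-fold (0.86), as it did with spike-in scaling. Emx2 and Lhx2 were the lowest, at -4.38 and -3.26, both known for the early gonad or for other organs. Emx2 had a signal of 13.8 on the busulphan array and 333.6 on the control array. Lhx2 had 95.05 on the busulphan array and 1055 on the control array.

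Genes described as targets of the 4 factors were higher in 21 and lower in 4 of 29 cases, against 31.3% and 29.5% of all genes. Their median was 2.41. The FSH receptor Fshr had 769.7 on the busulphan array and 30.3 on the control array, at 4.88 (29.4-fold). The tight junction gene Cldn11 had 10729 on the busulphan array and 542.6 on the control array, at 4.51, and Hsd17b1, a steroid dehydrogenase, stood at 4.23. Amh, the classic joint target, had low signals, 54.0 on the busulphan array and 15.9 on the control array, with a log2 ratio of 1.98 that became 0.81 with normexp. The lowest were aromatase (Cyp19a1) at -2.70, Sox10 at -1.96 and Fgf9, a signal that sustains Sox9 in the fetal gonad, at -1.75. With normexp aromatase and Fgf9 lay within 2-fold (-0.86 and -0.51). Sertoli cell markers stood in part in the same list, so this count is not separate from the cell type markers below.

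Genes of granulosa cells, the ovarian counterpart of Sertoli cells, had no single direction. Of 14 compared, 7 were higher and 3 lower, against 31.3% and 29.5% of all genes, and the median was 0.94. Foxl2, the defining factor of granulosa cells, had low signals, 20.8 on the busulphan and 13.9 on the control array, with a log2 ratio of 0.79 that turned below 0 under spike-in or housekeeping scaling (lowest value -0.18). The highest were Wnt4 at 4.66, and Fst and Hsd17b1 at 4.45 and 4.23, which Sertoli cells also express. Wnt4 was not well above background on the control array, where its own signal (7.74) was used. Its lowest value among alternatives was 2.03. Irx5, which was not well above background on the busulphan array, was at least 6.57-fold lower as processed here, but stood at -0.57 with normexp. Cyp19a1 stood at -2.70 and Lhx9 at -1.79.

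**Figure D5:**
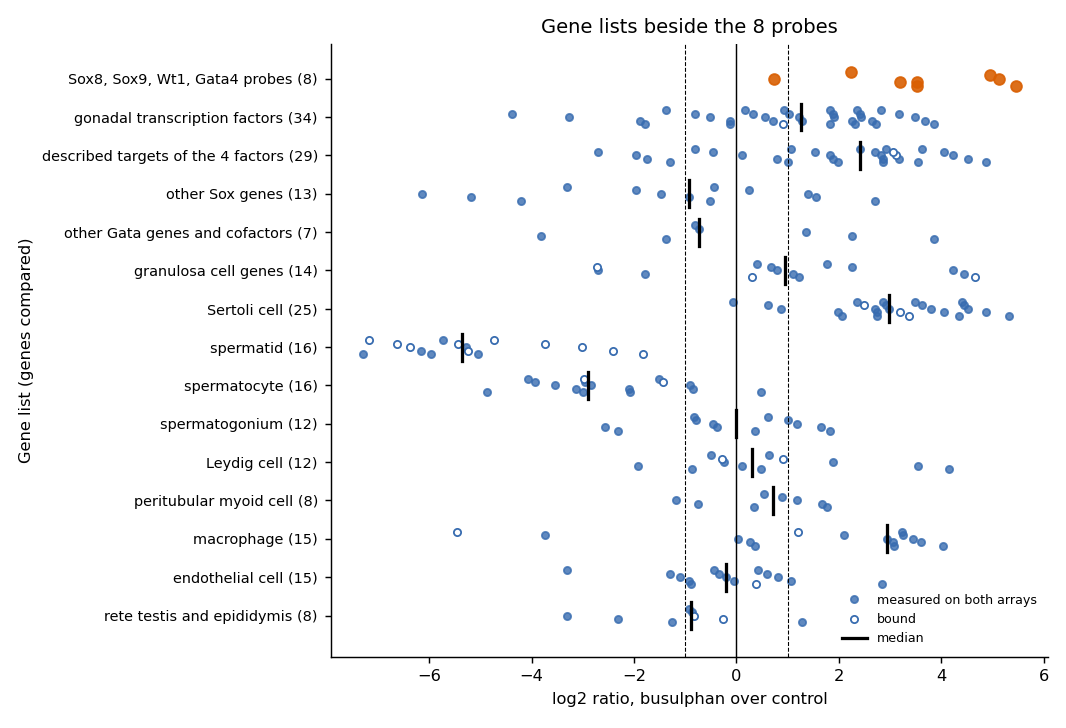
log2 ratio, busulphan over control, of the 8 probes (top) and of each gene list with at least 5 genes compared, with genes measured on both arrays as filled points, bounds as open points and the list median as a black bar. Of the 8 probes, 7 lie between 2.24 and 5.46, next to medians of 2.98 for the Sertoli cell list and 2.41 for the target list, while the other Sox genes (-0.93) and other Gata genes (-0.74) have medians below 0 and the spermatid list lies lowest (-5.36).

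Markers of the labelled cell type were read for their direction between the arrays, and the purity of each preparation was not measured. Among 25 other Sertoli cell markers, 22 passed 2-fold upward and none downward, against 31.3% and 29.5% of all genes. Their median was 2.98, and their signals summed to 462.2 times the 75th percentile on the busulphan array and 55.0 times on the control array. Serpina5 and Fshr were the highest, at 5.32 and 4.88, and Tjp1 and Krt18 the lowest, at 0.62 and -0.06. Clu, saturated on the busulphan array, gave a bound of 9.18-fold or more. Relative to the median of this list, Sox8 was above by 2.48 and 0.21 by its 2 probes, Wt1 by 0.55 and Gata4 by 0.54 for one probe and -2.25 for the other. The Sox9 probes stood at 2.14, 1.98 and -0.74 relative to it. The members' probes thus lay on both sides of the marker median.

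Markers of other cells moved between the same 2 preparations. For the counts here and in the next paragraph, 31.3% of all genes were higher and 29.5% lower. All 16 spermatid markers were lower (median -5.36), and where the control spot was saturated the ratio is a bound. Tssk6 was measured at -7.29. The bounds were -7.18 or below for Oaz3, -2.41 or below for Prm2 and, by its brightest probe, -1.83 or below for Prm1, whose other probes gave bounds of -3.65 and -2.93. The spermatid signals summed to 49.7 on the busulphan array and 709.5 on the control array in units of the 75th percentile, with 10 of the control spots saturated. Of 16 spermatocyte markers 13 were lower and none higher (median -2.90), with sums of 50.2 on the busulphan and 278.6 on the control array; Ccna1 and Meig1 stood at -4.87 and -4.08, Sycp1 at -0.84 and Dmc1 at 0.49. Of 12 spermatogonial markers 4 were higher and 2 lower (median -0.01, sums 26.6 on the busulphan and 10.2 on the control array), with Uchl1 at 1.83, Sall4 at 1.65, Pou5f1 at -2.31 and Gfra1 at -2.57. Without Uchl1, the largest signal in that sum, the sums were 5.51 on the busulphan and 4.29 on the control array. Another Sall4 probe gave -0.51 and another Gfra1 probe -0.35. Uchl1, Sall4 and Pou5f1 lay within 2-fold under at least 1 alternative. On the control array the spermatid and spermatocyte sums were above that of Sertoli cell markers (55.0), and on the busulphan array below it (462.2). Sums over different probes and lists are not shares of cells. The part of the lower germ cell RNA in the higher ratios of Sox8, Sox9 and Wt1 was not tested.

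Other somatic markers are of interest because Leydig and peritubular cells also express Gata4. The 12 Leydig cell markers included 3 that were higher and 1 that was lower (median 0.30, sums 80.7 on the busulphan and 44.2 on the control array). Most of both Leydig sums was Nr4a1, saturated on the busulphan array and named after its values were seen, and without it they were 9.51 on the busulphan and 6.03 on the control array. Akr1b7 and Star stood at 4.16 and 3.55, Hsd17b3 at -1.93 and Fdx1 at -0.86, the last with another probe at 1.33. Of 8 peritubular myoid markers 3 were higher and 1 lower (median 0.72, sums 67.2 on the busulphan and 50.01 on the control array), with Ptch1 at 1.76, Cald1 at 1.67 and Actg2 at -0.75. Another Cald1 probe gave -0.27. With housekeeping scaling the Leydig and myoid medians were -0.67 and -0.25. The part of these cells in the Gata4 ratios was not tested. Of 15 macrophage markers 10 were higher and 2 lower (median 2.95, sums 10.8 on the busulphan and 63.3 on the control array), with C1qc at 4.03, Mrc1 at 3.61, Fcgr3 at -3.74 and Aif1, saturated on the control array, at -5.46 or below. Without Aif1 the macrophage sums ran the other way, 9.42 on the busulphan and 3.34 on the control array. Of 15 endothelial markers 2 were higher and 3 lower (median -0.21, sums 16.7 on the busulphan and 10.4 on the control array), from Robo4 at 2.85 and Kdr at 1.07 to Tek at -1.30 and Sox17 at -3.31. Without Robo4 the endothelial sums also turned, to 5.86 on the busulphan and 8.93 on the control array. Another Tek probe gave 0.45. Of 8 rete testis and epididymis markers 1 was higher and 3 lower (median -0.89, sums 0.47 on the busulphan and 2.31 on the control array), with Cdh1 at 1.28, Pax8 dim on the busulphan array, Krt8 at -2.30 and Cftr at -3.30. Lhcgr (Leydig), Nanos2 and Ret (spermatogonium), Cd163 (macrophage) and Lcn5 and Lcn8 (epididymis) were not well above background on either array. Krt19 was the 1 mesothelial marker compared, at -0.12 and signals of 7.32 on the busulphan and 9.17 on the control array. Hsd17b3, Ptch1, Cald1, Kdr, Tek and Cdh1 lay within 2-fold under at least 1 alternative. Tjp1, Krt18, Fdx1, Dmc1 and Krt19 changed sign under at least 1 alternative.

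The genes nearest to each member in log2 ratio, over 2 arrays, were listed as a description. For Sox8 these were Lcp1 (5.46) and Pf4 (5.47), for Sox9 Plppr4 (5.14) and Rln1 (5.15), for Wt1 Plaur and Abcc1 (3.53 each) and for Gata4 Hic2 and Ptprf (0.73 each). Within 0.1 of the member's ratio there were 3 genes for Sox8, 4 for Sox9, 64 for Wt1 and 344 for Gata4. The control signals of Lcp1 (8.70), Pf4 (15.4) and Rln1 (10.4) lay near the floor of 7.50, while Plppr4 had 163.5. With 2 arrays a pattern is a single difference, so likeness of any member to other genes singles out little.

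Sox8 is the one of the 4 with an upstream sequence in the RefSeq table (GRCm38.p6), and it is shown because Sox8 had the highest ratio. The 250 bases before its start are given 5′ to 3′ on the minus strand, chr17:25570687-25570936, with matched motifs in capitals.
Sox8 upstream: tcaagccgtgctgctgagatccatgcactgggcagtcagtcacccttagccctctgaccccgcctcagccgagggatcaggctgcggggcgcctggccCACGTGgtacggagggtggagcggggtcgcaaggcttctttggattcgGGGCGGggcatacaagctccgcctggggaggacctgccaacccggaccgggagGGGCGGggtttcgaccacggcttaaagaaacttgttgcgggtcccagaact
The stretch holds 65.6% G and C and 18 CG dinucleotides, against medians of 52.4% and 6 over 32851 upstream sequences of the same length. Both strands were searched for GGGCGG, the GC box, which matched at positions -104 and -51 from the start and is held by 32.7% of these sequences. CANNTG, the E-box, matched once, at position -152, and is held by 66.2%. The letters ACAAT of SOX sites (27.7%), GATAA of GATA sites (22.6%), GCGGGGGCG of WT1 and EGR sites (2.57%), CCAAT (33.9%) and TATAAA (12.4%) had no match in this window. The motifs that matched do not overlap each other, and a match is a description of letters only.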

How the data were processed

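RNA of 2 preparations was read on 1 Agilent single-colour array each. Per the file headers, the deposited signals are intensity values from version 11.5.1.1 of the scanner software Feature Extraction, with background subtracted and the array detrended. The deposited log2 table differs from the log2 processed signals by 1 constant an array, 9.82 for busulphan and 10.03 for control, with medians of -2.77 for busulphan and -2.94 for control; no step of its making beyond the software's name is given in the sources used here. Per the file headers, both arrays were scanned at 1 time. Of 15208 non-control probes, 12064 (busulphan) and 12302 (control) were well above background, and 18 (busulphan) and 106 (control) were saturated; the number of arrays limits the precision.

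Log2 processed signals were taken relative to each array's 75th percentile (905.0 for busulphan and 1046 for control), leaving out 4 outlier probes. Probes dim on both arrays were left out, and each gene was represented by the probe whose mean was highest. A spot dim or saturated on 1 array gave a bound, in most cases written as at least so many fold. Such a bound holds for the reported processing only. For a dim spot the bright value was set against the higher of its own signal and the lowest well above background (6.26 for busulphan, 7.50 for control). Higher and lower mean 2-fold or more. Spot errors come from the software's error column. RefSeq accessions (GRCm38.p6) named 13330 probes, while 1878 went by the scanner files' own name. Positions are as deposited (mm9). Alternatives were limma 3.58.1 normexp (offset 50), quantile and loess, scaling by the median, by bright probes, by housekeeping genes, by 6 spike-in probes or not at all, the deposited table, other filters and thresholds, measured values in place of bounds, and the median over probes. The 2-fold rule was also run on simulated arrays whose only noise was the scanner software's spot error. That run cannot measure variation between preparations, labellings or arrays. The members, lists and rules were chosen with earlier results of these data known. Named genes are all probes of the members, the 3 highest and 3 lowest of each pathway list, the 2 highest and 2 lowest of each marker list, 11 fixed genes, and the 2 genes nearest in ratio to each member; a few of them are not reported here.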

Additional observations from a re-analysis of the deposited data

How the results depend on the processing

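With 1 array per group no alternative brings a test, and a shift beyond the spot error is given as a value. No paired analysis was possible because each group has 1 sample. Each gene was taken here by its brightest probe or by the median over probes. Among alternatives, Sox8 ranged from 3.48 to 5.63, Sox9 from 4.16 to 5.32 and Wt1 from 2.56 to 3.81. Taken so, these 3 stayed at least 4-fold higher in every one run, and Gata4 ranged from -0.23 to 2.13. Other single probes fell outside these ranges. Sox8 A_52_P269667 ranged from 1.98 to 3.36, Sox9 A_51_P451606 from 0.83 to 2.42 and Gata4 A_52_P4201 from 1.40 to 3.70. With normexp, Sox8, Sox9 and Gata4 stood at 3.48, 4.71 and 0.51. With housekeeping genes Sox8, Sox9, Wt1 and Gata4 stood at 4.49, 4.16, 2.56 and -0.23, and with spike-in controls at 4.57, 4.24, 2.65 and -0.15. With loess Sox8, Sox9 and Gata4 stood at 5.06, 4.92 and 0.35. Without scaling Sox9, Wt1 and Gata4 stood at 4.91, 3.32 and 0.53, and with quantiles Wt1 at 3.81. The median over probes gave 4.32 for Sox8 and 2.13 for Gata4, since their probes differ.

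Of all 9441 genes, 1406 were higher and 4517 lower with housekeeping genes, 1525 and 4382 with spike-in controls, and 1360 and 1674 at 4-fold. They were 2323 and 2139 with normexp, 3727 and 3489 at 1.5-fold, and 2875 and 2726 with the median over probes. The list counts below are to be read beside these. Gonadal transcription factors had 12 higher and 9 lower with housekeeping genes, 9 lower with spike-in controls, and 12 higher and 2 lower at 4-fold. Targets had 2 lower with normexp and 1 at 4-fold. Granulosa genes had 4 higher with housekeeping genes, spike-in controls or 4-fold, and 1 lower with normexp. Other Sox genes had 1 higher in those 3 settings. Other Gata genes had 4 lower with housekeeping genes, spike-in controls or 1.5-fold, and 1 lower with normexp, the median over probes or 4-fold. Of the other values for single probes, markers and named genes, 1017 stayed within the limits set, 484 moved and 1 reversed. Only a log2 value reported at 1 or more in size, either way, could be called reversed. Smaller values that changed sign are counted among the others. Examples are Gata4 probe A_51_P492355 (0.73, lowest -0.23), Foxl2 (0.79, lowest -0.18) and the Leydig median (0.30, lowest -0.67). The reversed value was the log2 ratio of the summed macrophage signal, -2.55 with all genes and 1.496 without Aif1. Aif1 is its gene of the largest signal and was saturated on the control array. Leaving out that gene of each marker list was chosen after seeing the data. The cause of the other shifts was not tested. Low control signals limit the precision of 3 probes (Sox8 A_52_P269672, Sox9 A_51_P451606, Gata4 A_52_P4201).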
